A study of Sus scrofa with 67 samples.

Results

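The endometrium, the inner lining of the uterus, had 34 genes whose mean level stood higher on day 15 of the oestrous cycle than on each other day sampled, out of 25322 genes in the count table. They were chosen from the counts themselves. Counts were divided by the library total and multiplied by 1000000 to give CPM, and 1 CPM was added to the mean of each tissue and day before any ratio was taken. A member had an endometrium ratio of at least 1.7 between day 15 and every other day, a day 15 mean of at least 5 CPM there, and a ratio of day 9 to day 0 above 0.5 and under 2 in each of the endometrium, ovary and oviduct. The level and the day 9 limits alone were met by 7569 genes. Because the rule used every endometrium day, and days 0 and 9 of the other tissues, the endometrium values are given as a description without a test. A gene symbol was found for 25 members, and the other 9 are known here by their Ensembl identifiers only.

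The animals were Landrace × Yorkshire gilts, young female pigs, 6 to 8 months old by the study's methods, that had already cycled normally and received no treatment. Day 0 was the onset of oestrous behaviour. Poly-A RNA of the endometrium (dissected free of myometrium), the ampulla of the oviduct and a whole ovary was sequenced on day 0 and at steps of 3 days up to day 18, in 66 libraries, 22 per tissue and 2 to 4 per tissue and day. The methods give 3 gilts per day, so whether the 4 endometrium libraries of day 15 came from 4 gilts is not known, and spreads and p-values describe these libraries.

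The pig cycle turns on the corpora lutea, which secrete progesterone through the luteal phase and regress late in it unless embryos are present. The endometrium times that regression by releasing prostaglandin F2α, and day 15 lies at that late luteal stage. Its epithelium also takes up and secretes ions, iron-carrying and vitamin A-carrying proteins and other nutrients that feed an early conceptus.

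Total counts per library were between 8962103 and 13442083 over the 66 libraries, and between 8968120 and 11793142 in the endometrium. At these depths 3 counts, taken here as the lowest detectable level, equal 0.223 to 0.335 CPM, a floor that covers counting error only. Endometrium libraries held epithelial markers (4 of 6 found, summed level 1841 to 4855 CPM over the libraries of the other days) and stromal markers (5 of 6 found, 5073 to 22974 CPM). Granulosa and luteal markers, which should be low in this tissue, summed to 1.36 to 7.81 CPM there.

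Of the 22 endometrium libraries, 5 were closest in profile to another day than their own, over 14412 genes outside the 34. Library 2 of day 15 stood farthest apart. Its log2 profile correlated with the mean of day 12 at r = 0.983 and with the mean of the other 3 day 15 libraries at r = 0.914. Libraries 1 and 3 of day 15 were closest to their own day, at r = 0.973 and 0.975. Library 4 was closest to day 18 (r = 0.974, against 0.965 with day 15), and library 1 of day 18 was closest to day 15 (r = 0.972, against 0.962 with day 18). Day 0 library 1 was closest to day 3 (0.980, against 0.978) and day 6 library 3 to day 9 (0.978, against 0.972), both by small margins. These correlations are across genes and describe the libraries, and each library's day is used as labelled throughout. Whether the labels of day 15 library 2 and day 18 library 1 are right was not tested, and every ratio of day 15 to days 12 and 18 rests on them.

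The members' levels split the same way. The library labelled day 15 library 2 was the lowest of the 4 for 31 of the 34 members (91.2%). The same was true of 29.0% of the 7569 genes. Nothing is read from this difference, because the rule used the day 15 and day 12 levels of these libraries. For 24 members its level lay within the range of the 3 day 12 libraries. Relative to each member's highest mean of days 0 to 9, the median log2 ratio over the members was 1.47, -0.08, 2.12 and 1.62 in day 15 libraries 1 to 4. It was 0.08, -0.18 and -0.01 in the day 12 libraries, and 0.84, -0.02 and 0.11 in those of day 18. The higher level of the group on day 15 was thus carried by libraries 1, 3 and 4. Library 1 of day 18 lay between those and the remaining late libraries.

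**Figure D1:**
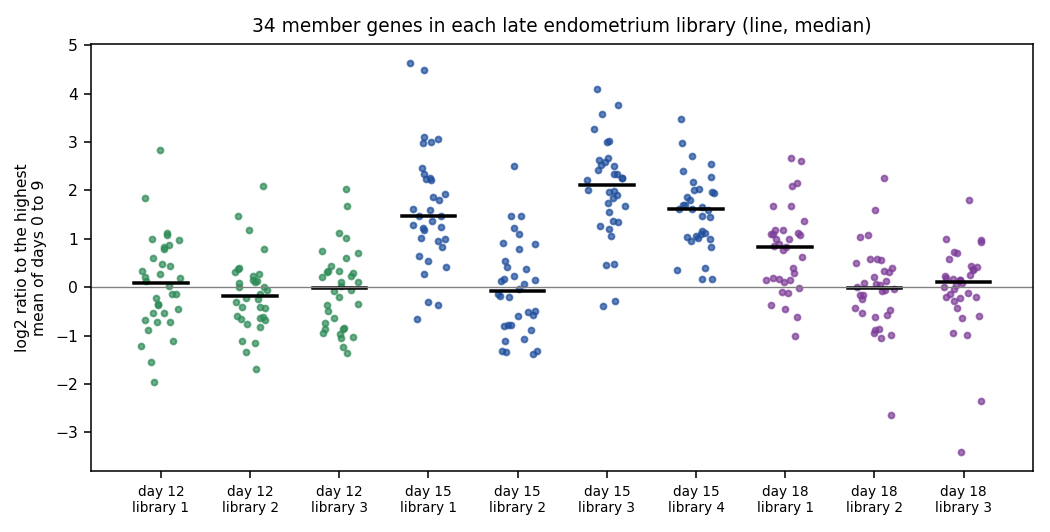
Log2 ratio of each of the 34 member genes (points) to its own highest endometrium mean of days 0 to 9, with 1 CPM added to both, in the 10 endometrium libraries of days 12 (green), 15 (blue) and 18 (purple). Black lines are medians over the members: 1.47, 2.12 and 1.62 in day 15 libraries 1, 3 and 4, -0.08 in day 15 library 2 and 0.84 in day 18 library 1.

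With all libraries, the ratio of day 15 to the next highest day was between 1.71 and 3.24 over the members, with a median of 1.97. Without day 15 library 2 the ratio was between 1.51 and 4.09, with a median of 2.36, and 33 of the 34 kept a ratio of at least 1.7. The next highest day was day 18 for 20 members, day 12 for 7, day 0 for 3, day 3 for 3 and day 9 for 1. At the limit of the rule, ENSSSCG00000027527 (ratio 1.71) and MID1IP1 (1.74) fell just inside. SLC6A17, a neuronal amino acid transporter, and FAM13A, a gene of metabolic tissues, both a little under 1.7, fell just outside.

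A stricter view asks which members had libraries 1, 3 and 4 of day 15 all above each of the 18 endometrium libraries of the other days. There were 15 such members: TFRC, SLC12A2, CTH, GCLC, WDFY3, CD164, FMO5, CYSTM1, RPRD1B, MOSPD2, AVIL, CD69, MALT1, CKMT2 and ENSSSCG00000009281. Among the 7569 genes, 1.49% had this pattern. As the rule selects for it, nothing is read from the difference. MALT1 alone had all 4 day 15 libraries above every other endometrium library (background 0.119%). At the other end, 13 members drew more than 50% of their summed day 15 level from 1 library.

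**Figure D2:**
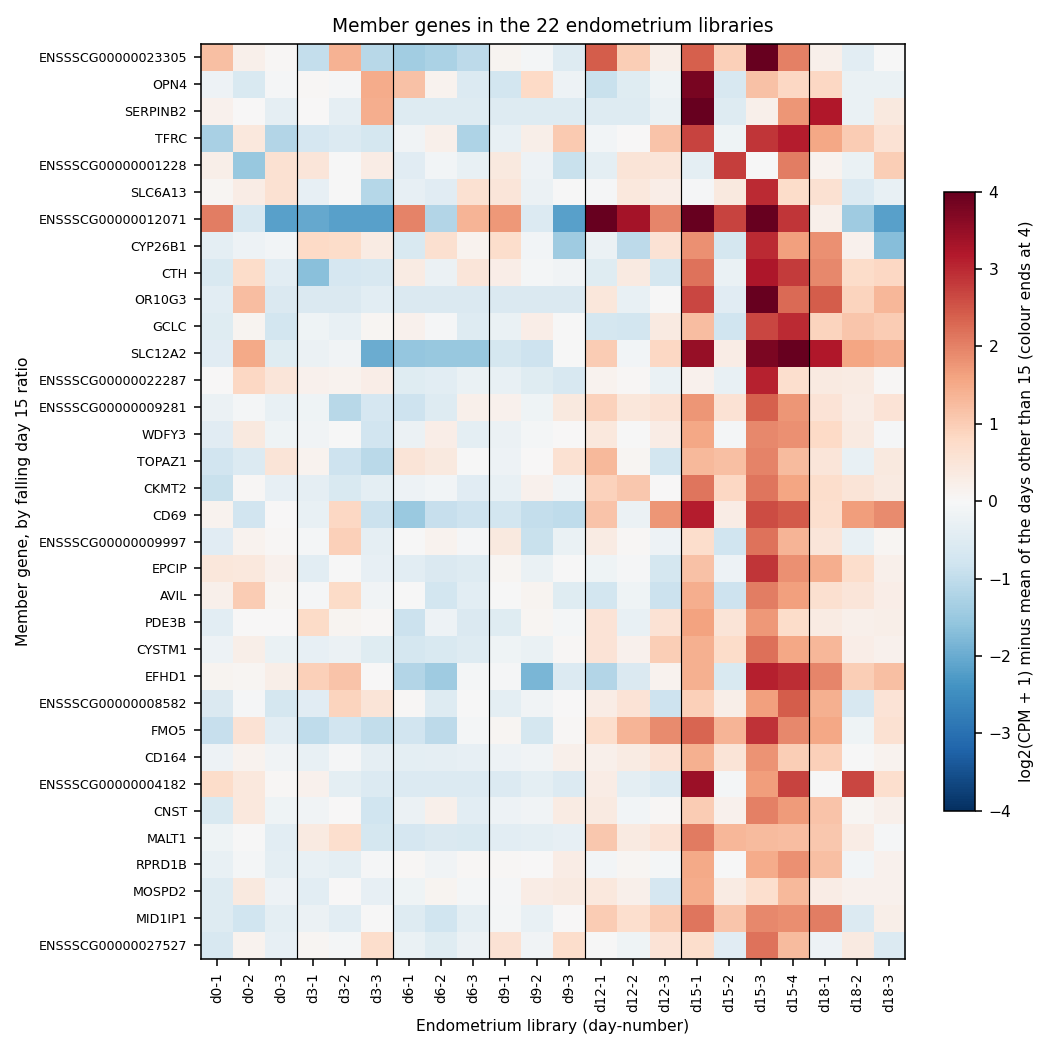
Level of the 34 member genes (rows, by falling ratio) in the 22 endometrium libraries (columns, day and library number), as log2(CPM + 1) minus the gene's mean over the libraries of days other than 15. Red is higher and blue lower, and colours end at 4. The columns of day 15 libraries 1, 3 and 4 are red for most rows, and the column of library 2 is pale for most.

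Of the members with roles in uptake and ion transport, TFRC (ENSSSCG00000011848), the transferrin receptor that brings iron into cells, stood at 617, 84.3, 688 and 846 CPM in day 15 libraries 1 to 4. On day 12 it stood at 88.7, 95.7 and 211 CPM, and on day 18 at 277, 193 and 142 CPM. The 12 libraries of days 0 to 9 were between 37.9 and 197 CPM (median 70.6). Libraries 1, 3 and 4 of day 15 were above every library of another day, and library 2 lay among those of days 0 to 9. The mean was 559 ± 331 CPM (SD, n = 4) on day 15 against 204 ± 68.2 (n = 3) on day 18, the next highest, a ratio of 2.73, or 3.5 without library 2.

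SLC12A2 (ENSSSCG00000014255) encodes NKCC1, the cotransporter that loads secretory cells with sodium, potassium and chloride. Its day 15 levels were 707, 76.4, 858 and 1001 CPM, against 124, 56.5 and 109 CPM on day 12. On day 18 they were 572, 184 and 170 CPM, and on days 0 to 9 from 14.9 to 177 CPM (median 40.7). The day 18 library closest to day 15 in its whole profile was the one at 572 CPM. The ratio to day 18 was 2.14, or 2.76 without day 15 library 2. It was 4.81 without both that library and day 18 library 1.

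SLC6A13, a transporter of GABA and taurine, was carried by 1 library. Its day 15 levels were 2.07, 3.16, 23.6 and 4.24 CPM, and no library of another day exceeded 3.84 CPM. Only libraries 3 and 4 were above that level.

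Of the members with roles in sulphur amino acids and redox chemistry, CTH (ENSSSCG00000003789), the cystathionine gamma-lyase that makes cysteine from cystathionine, stood at 89.0, 15.9, 188 and 138 CPM on day 15. Day 12 libraries were at 13.3, 24.9 and 11.3 CPM, day 18 libraries at 75.0, 32.3 and 34.6 CPM, and those of days 0 to 9 at 5.36 to 32.9 CPM (median 16.7). The lowest of the 3 high day 15 libraries thus exceeded the highest day 18 library by a narrow margin, and library 2 sat at the level of the earlier days.

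GCLC (ENSSSCG00000001488), the catalytic subunit of glutamate-cysteine ligase that uses cysteine in the first step of glutathione synthesis, stood at 167, 40.3, 457 and 567 CPM on day 15. It stood at 43.1, 41.7 and 90.7 CPM on day 12 and at 133, 152 and 142 CPM on day 18. Days 0 to 9 were flat, from 42.1 to 86.0 CPM (median 65.1). All 3 day 18 libraries were above every library of days 0 to 12, and library 2 of day 15 was lower than any other endometrium library.

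FMO5 (ENSSSCG00000006702), a flavin-containing monooxygenase, was already high on day 12. Its levels were 163, 255 and 374 CPM on day 12, 507, 256, 748 and 377 CPM on day 15, and 293, 87.2 and 151 CPM on day 18. Days 0 to 9 gave 47.2 to 149 CPM (median 59.6). Library 4 of day 15 exceeded the highest day 12 library by only a few CPM, so the step between these days was far less clear than for CTH or GCLC.

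Mitochondrial and calcium-linked members included CKMT2, the sarcomeric mitochondrial creatine kinase, at 7.18, 2.32, 7.24 and 4.58 CPM on day 15 against at most 2.99 CPM in any library of another day. EFHD1, a calcium-binding mitochondrial protein, stood at 71.5, 16.6, 233 and 208 CPM on day 15 and at 103, 51.9 and 60.4 CPM on day 18. Its day 15 and day 18 libraries overlapped. ENSSSCG00000009281, which has no symbol and is given no role here, stood at 12.8, 5.01, 20.4 and 12.8 CPM on day 15. Its day 15 libraries 1, 3 and 4 were above the 6.74 CPM of the highest library of another day.

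**Figure D3:**
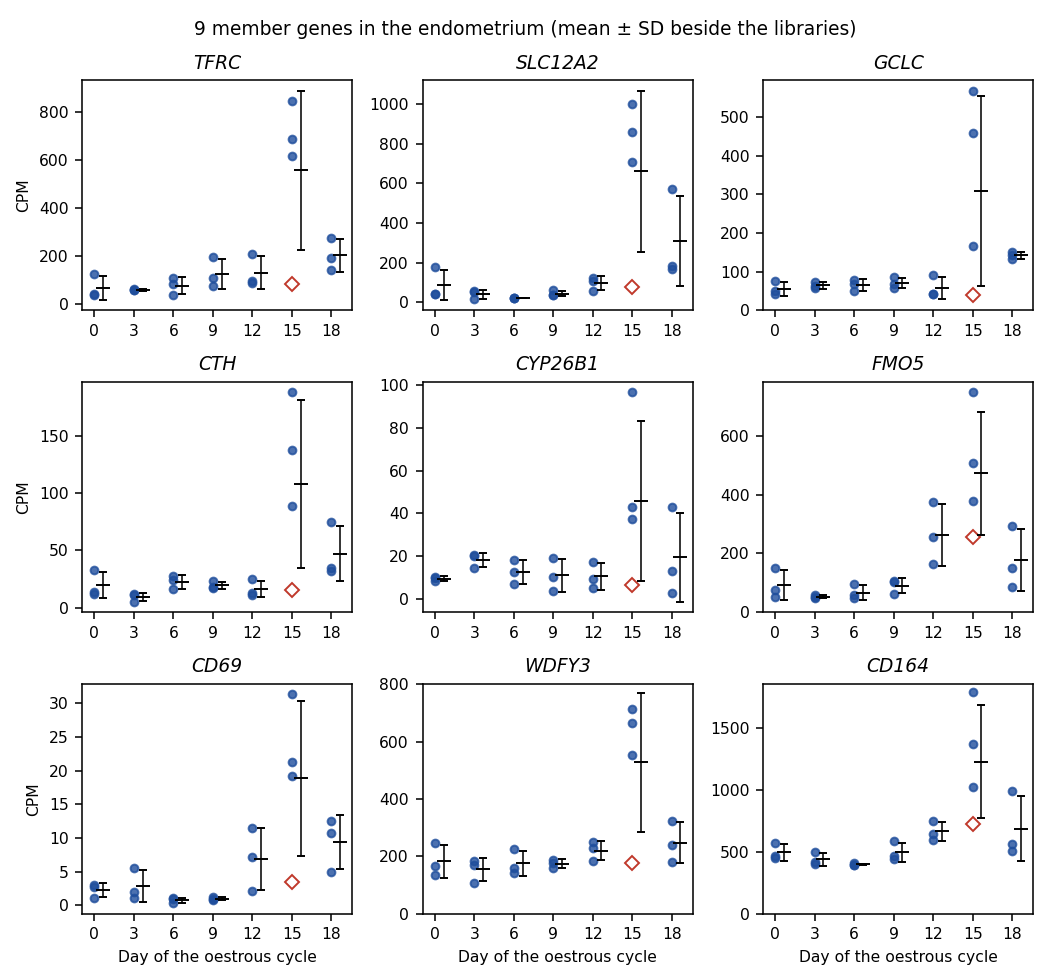
CPM of 9 member genes in each endometrium library by day of the cycle (circles, with the open red diamond for day 15 library 2), and beside them the mean (dash) with its SD (bars). In each panel the highest level of the gene is a filled point of day 15, and the diamond lies within or near the range of the earlier days; for TFRC it is at 84.3 CPM beside 617, 688 and 846 CPM.

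CYP26B1 (ENSSSCG00000008311), which breaks down retinoic acid, the active form of vitamin A, stood at 43.0, 6.59, 96.5 and 37.6 CPM on day 15. Day 12 was at 9.50, 5.01 and 17.3 CPM, day 18 at 42.8, 13 and 2.79 CPM, and days 0 to 9 at 3.66 to 20.6 CPM (median 11.6). Day 18 library 1 reached the level of day 15 libraries 1 and 4, so the 2 days overlapped. Its paralogue CYP26A1, which has the same enzymatic role and is no member, ran at other days, with means of 696 CPM on day 9, 36.5 CPM on day 12 and 16.3 CPM on day 15. Within day 15, CYP26A1 was higher in library 2 (40.8 CPM) than in libraries 1, 3 and 4 (22.0, 2.02 and 0.509 CPM), the reverse of CYP26B1. RBP4, the plasma and uterine carrier of retinol, stood at 8471, 122, 7831 and 7747 CPM in the same 4 libraries.

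Among members with roles in immune cells, CD69 (ENSSSCG00000000653), an early activation marker of lymphocytes, stood at 31.4, 3.53, 21.3 and 19.2 CPM on day 15. It stood at 7.17, 2.13 and 11.4 CPM on day 12 and at 4.91, 10.7 and 12.5 CPM on day 18, and the 12 libraries of days 0 to 9 were at or below 5.58 CPM (median 1.11). Some libraries of days 12 and 18 were thus also above the early days. T and NK cell markers (5 of 7 found) summed to 43.6, 44.9, 31.7 and 29.0 CPM in day 15 libraries 1 to 4, within the 9.92 to 108 CPM of the other days, and library 2, the lowest for CD69, was the highest of the 4 for these markers. In bulk tissue, fewer cells of a type and less RNA per cell cannot be told apart.

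MALT1 (ENSSSCG00000004917), a protease and scaffold that relays antigen receptor signals to NF-κB, stood at 43.6, 25.4, 24.5 and 24.0 CPM on day 15. Day 12 gave 21.4, 12.6 and 14.3 CPM, day 18 gave 21.1, 12.0 and 9.14 CPM, and days 0 to 9 gave 5.51 to 15.7 CPM (median 7.03). Unlike most of the members above, it was not low in library 2. CD164 (ENSSSCG00000004414), a sialomucin of cell adhesion and of lysosomes, stood at 1375, 729, 1792 and 1024 CPM on day 15 against 991, 511 and 563 CPM on day 18 and 598, 648 and 755 CPM on day 12. Its lowest level of days 0 to 9 was 395 CPM, so it was abundant in the endometrium on each day sampled.

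SERPINB2, the plasminogen activator inhibitor 2 of monocytes and epithelia, was the least even member. It stood at 52.3 CPM in day 15 library 1 and at 0, 0.641 and 3.82 CPM in libraries 2, 3 and 4. Day 18 library 1 was at 12.1 CPM, and the median of days 0 to 9 was under the floor. Without day 15 library 1 its day 15 mean fell below that of day 18. Library 1 also had the highest neutrophil marker sum of the 4 (3 of 6 markers found, at 23.6, 0.650, 10.8 and 5.85 CPM), against 0.739 to 34.4 CPM on the other days. The part of these cells in the result was not tested.

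The remaining members serve traffic, the cytoskeleton, transcription and metabolism. WDFY3 (ENSSSCG00000009230), a scaffold for the selective autophagy of protein aggregates, stood at 553, 179, 712 and 665 CPM on day 15. The highest other endometrium library, day 18 library 1, was at 324 CPM, and days 0 to 9 were between 109 and 245 CPM (median 168). Its ratio was 2.12, or 2.58 without library 2. RPRD1B (ENSSSCG00000007342), which binds the tail of RNA polymerase II, stood at 256, 89.3, 253 and 322 CPM, above the 207 CPM of day 18 library 1 except in library 2. All other endometrium libraries of RPRD1B were at or below 110 CPM.

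CYSTM1, a small cysteine-rich membrane protein, stood at 251, 156, 433 and 275 CPM on day 15 and at most at 235 CPM elsewhere. AVIL, the actin-binding advillin, stood at 23.0, 3.99, 35.4 and 26.2 CPM and at most at 17.0 CPM in other libraries. MOSPD2, which tethers membranes to the endoplasmic reticulum, stood at 90, 39.4, 49.8 and 78.7 CPM and at most at 41.8 CPM elsewhere. These 3 genes had the same split as TFRC, with library 2 the only day 15 library inside the range of the other days.

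MID1IP1, an activator of fatty acid synthesis, stood at 194, 94.6, 166 and 160.1 CPM on day 15, and day 18 library 1 reached 183 CPM. CNST, a protein of connexin traffic, ranged from 7.33 CPM in library 2 to 29.1 CPM in library 3. PDE3B, the phosphodiesterase that lowers cyclic AMP downstream of insulin, ranged from 2.69 to 7.51 CPM. Day 15 overlapped with other days for each of these.

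The following members had low counts in most libraries. ENSSSCG00000023305, with the highest ratio of the 34 (3.24), stood at 12.6, 4.08, 66.0 and 9.67 CPM on day 15, and day 12 library 1 at 13 CPM exceeded 3 of the 4. OPN4, the photopigment melanopsin, stood at 24.4 CPM in library 1 and at 0.186 to 3.11 CPM in the other 3. OR10G3, an olfactory receptor, stood at 8.46, 0.0928, 24.3 and 6.19 CPM and was under the floor in a typical library of days 0 to 9. TOPAZ1, a germ cell gene, ranged from 4.83 to 9.07 CPM, and EPCIP, named for its binding to polycystin 1, from 0.650 to 12.9 CPM.

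The unnamed ENSSSCG00000012071 stood at 237, 28.4, 126 and 31.6 CPM on day 15 and at 74.5, 44.3 and 16.7 CPM on day 12, then between 0 and 4.27 CPM on day 18. It and ENSSSCG00000023305 were low on day 18, unlike the 20 members whose next highest day was day 18. ENSSSCG00000001228 was the only member with its highest day 15 level in library 2 (2.95, 34.3, 4.12 and 20.7 CPM), and the only member whose ratio fell below 1.7, to 1.51, without that library. ENSSSCG00000022287 stood at 124 CPM in library 3 and at 11 to 22.4 CPM in the others. ENSSSCG00000004182, ENSSSCG00000008582, ENSSSCG00000009997 and ENSSSCG00000027527 had day 15 means of 5.07 to 16.3 CPM with each day 15 range overlapping that of another day.

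Markers of other cell types were summed in the same 4 libraries. Smooth muscle markers (5 of 5 found), which would rise with myometrium, summed to 444, 212, 732 and 875 CPM in day 15 libraries 1 to 4 and to 117 to 713 CPM on other days. Endothelial markers (2 of 5 found) summed to 404, 170, 435 and 514 CPM, against 156 to 519 CPM. Both sums were lowest of the 4 in library 2, as most members were, and so were those of stroma, macrophages and neutrophils. Neutrophil markers were highest of the late libraries in day 18 library 1, at 34.4 CPM. Epithelial markers summed to 2440, 2526, 2169 and 2108 CPM, with library 2 the highest, and stromal markers to 11644, 9357, 13022 and 12381 CPM. Erythroid markers (3 of 5 found) summed to 208, 120, 14.9 and 219 CPM, with library 3, the highest for 20 of the 34 members, the lowest of the 4. Macrophage markers (5 of 6 found) summed to 111, 58.0, 76.8 and 69.9 CPM, B and plasma cell markers (3 of 5 found) to 6.59, 31.8, 8.98 and 2.80 CPM, and ciliated cell markers (3 of 5 found) to 181, 231, 209 and 204 CPM. Every marker found for smooth muscle, endothelium and erythroid cells was detected on day 15. Between days 12 and 15, edgeR called 1 of 36 markers tested (3.9% of all genes were called higher and 2.27% lower). Of the markers, 13 had an unadjusted p under 0.05, among them both neutrophil markers tested, 3 of 5 of smooth muscle, 3 of 4 of epithelium and 3 of 5 of stroma. The share of all genes with such a p is not given here, so nothing is read from the 13 or from such counts in the pathway lists. The marker called was EPCAM of the epithelium, at 967, 443, 865 and 935 CPM on day 15 and 486 ± 38.9 CPM (SD, n = 3) on day 12. That call was lost with a replicate block, and also without day 15 library 1 or library 4, where 0 of all genes were called. The part of these cells in the members' levels was not tested.

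Of the 3 tissues, the endometrium had the highest day 15 mean for 30 of the 34 members, the ovary for 3 and the oviduct for 1. The endometrium was highest on that day for 39.5% of the 7569 genes. As the rule asks for a raised day 15 level in the endometrium, nothing is read from the difference. A day 15 mean of at least 5 CPM was seen for 22 members in the ovary (92.9% of the 7569 genes) and 19 in the oviduct (95.6%). GCLC was abundant in the ovary, at 380, 618, 92.6 and 80.5 CPM on day 15.

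The rule did not use days 12, 15 and 18 of the ovary and oviduct, so whether the members also changed there around day 15 could be tested. The methods give 3 gilts per day for all tissues, so these libraries may share animals with the endometrium libraries that chose the members. Their values may therefore not be independent of the choice, and which libraries share a gilt is not known here. The oviduct mean was highest on day 15 for 8 members (23.5%, against 11.2% of the 7569 genes), and the ovary mean for 13 (38.2%, against 16.7%). Means were below 1 CPM on every day for 9 members in the ovary and 3 in the oviduct. By contrast, 92.9% and 95.6% of the 7569 genes reached 5 CPM on day 15 in these tissues. The shares are thus of genes at unlike levels, and nothing is read from the differences. Days 15 and 12, and 18 and 15, were then compared with the quasi-likelihood test of edgeR. P-values were adjusted over all genes tested (Benjamini-Hochberg), with calls at an adjusted p under 0.05.

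No member was called in any of the 4 comparisons by edgeR. In the oviduct, 31 members were tested. Between days 12 and 15, 0 were called (background 0.0128%) and 7 had an unadjusted p under 0.05, as did 2214 of 15665 genes. Between days 15 and 18, 0 were called (background 0.0128%) and 7 had such a p, as did 2518 genes. In the ovary, 29 members were tested. Between days 12 and 15, 0 were called (background 0.0256%) and 10 had such a p, as did 3344 of 15638 genes, and between days 15 and 18, 0 were called (background 0.0%) and 1 had such a p, as did 870 genes. DESeq2's Wald test called 2, 0, 3 and 1 members in these 4 comparisons, beside 1.46%, 1.43%, 8.79% and 0.109% of all genes. Leaving out 1 library moved the edgeR count between days 12 and 15 to 3 in the oviduct (without day 15 library 2, beside 5.45% of all genes). In the ovary it moved to 6 (without day 12 library 1, beside 17.6%) and to 4 (without day 15 library 2, beside 7.53%).

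The median log2 fold change of the members tested stayed near 0 from day 12 to day 15. It was 0.03 in the oviduct (0.02 over all genes) and 0.17 in the ovary (0.03 over all genes). From day 15 to day 18 it was -0.29 in the oviduct (-0.03 over all genes) and -0.28 in the ovary (-0.03 over all genes). The 2 comparisons of each tissue share the day 15 libraries.

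**Figure D4:**
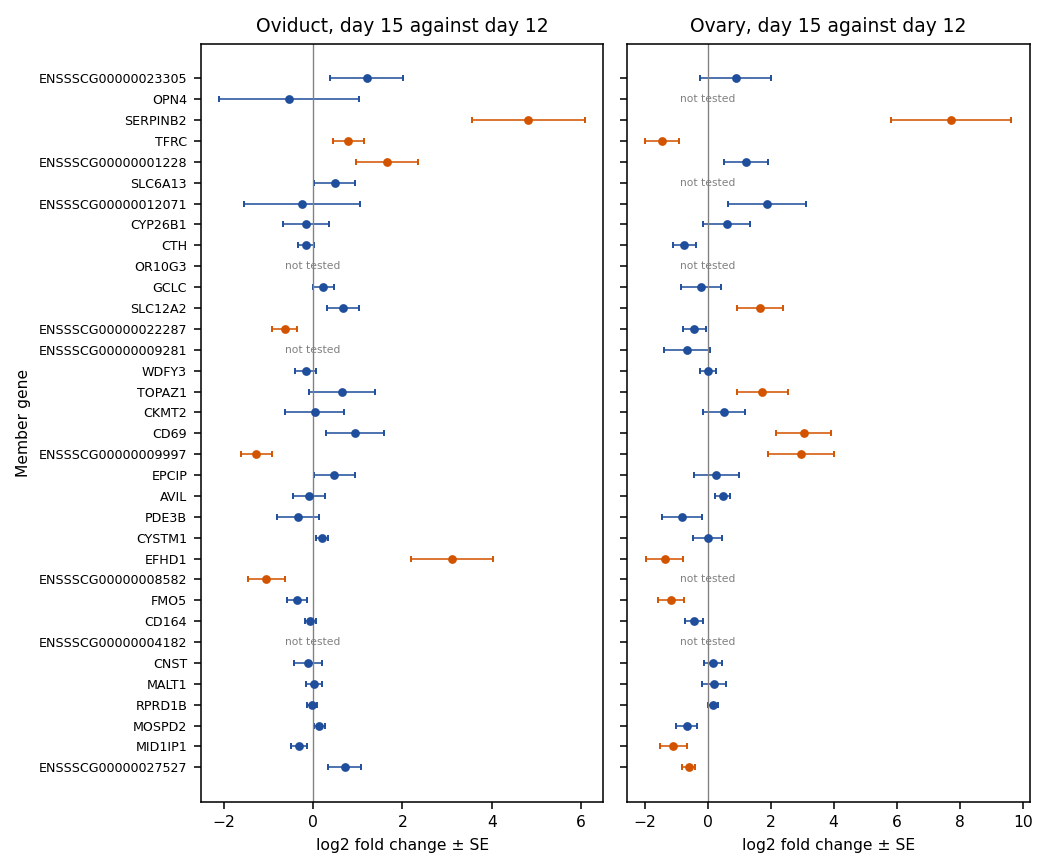
Log2 fold change of day 15 against day 12 (points) with its standard error (bars) from edgeR for each member in the oviduct (left) and the ovary (right). Orange points have an unadjusted p under 0.05, none passed the adjusted threshold, and genes too low to test are marked; the largest estimate, SERPINB2 in the ovary, is 7.74.

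SERPINB2 had the lowest adjusted p of the members in the ovary, with a log2 fold change of 7.74 ± 1.91 (SE) from day 12 to day 15 (edgeR adjusted p = 0.0681). Its day 15 levels were 3.79, 0.286, 594 and 319 CPM, and its 4 day 12 levels were 0.0974 to 2.22 CPM. It was 114 CPM in day 18 library 1 and under 3 CPM in the other day 18 libraries. SLC12A2 was high in the same 3 ovary libraries, at 91.3 and 103 CPM in day 15 libraries 3 and 4 and at 73.6 CPM in day 18 library 1, and between 8.57 and 20.6 CPM in the other libraries of these 3 days (log2 fold change 1.67 ± 0.73, edgeR adjusted p = 0.196). ENSSSCG00000009997 was also highest there, at 13.1, 15.6 and 46.9 CPM (2.97 ± 1.04, adjusted p = 0.113).

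Ovary libraries of these days also differed in their markers. Neutrophil markers summed to 7.47, 2.57, 379 and 50.4 CPM in day 15 libraries 1 to 4, against at most 5.48 CPM on day 12. On day 18 they summed to 138, 4.76 and 134 CPM. Epithelial markers summed to 784, 26.1, 1010.9 and 707 CPM on day 15, to 763, 21.7 and 24.3 CPM on day 18, and to at most 29.3 CPM on day 12. The libraries high for SERPINB2 and SLC12A2 were thus high for both sets of markers, while day 15 library 1 was high for the epithelial and day 18 library 3 for the neutrophil markers only. Granulosa and luteal markers, the defining genes of the ovary, were detected in each of these libraries but varied from 272 CPM in day 12 library 1 to 9089.9 CPM in day 12 library 3. The part of tissue composition in the members' levels was not tested.

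CD69 had the next lowest adjusted p in the ovary, with a log2 fold change of 3.04 ± 0.89 (edgeR adjusted p = 0.0786). Its levels were 1.84, 0.762, 5.97 and 2.01 CPM on day 15 and 0.682, 0.0862, 0.0856 and 0.355 CPM on day 12, where most lay near the floor. The lowest day 15 library held 8 counts of CD69 and the highest day 12 library 7, so nothing is read from the groups not overlapping. T and NK cell markers summed to 25.7 to 87.6 CPM in the day 15 libraries and to 10.9 to 47.1 CPM in those of day 12.

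TFRC went the other way in the ovary. It stood at 34.9, 130.4, 74.6 and 150.0 CPM on day 12 and at 53.0, 48.7, 63.2 and 16.3 CPM on day 15, a log2 fold change of -1.44 ± 0.54 (edgeR adjusted p = 0.136). The groups overlapped through day 12 library 1. FMO5 (-1.17 ± 0.41, adjusted p = 0.116), EFHD1 (-1.37 ± 0.57, adjusted p = 0.18) and MID1IP1 (-1.09 ± 0.43, adjusted p = 0.157) had estimates of the same sign, none of which passed.

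In the oviduct, SERPINB2 again had a positive estimate (4.82 ± 1.27, edgeR adjusted p = 0.191), from levels of 0.267, 0.0963, 6.43 and 2.88 CPM on day 15. On day 12 its libraries were at or below 0.295 CPM. EFHD1 (3.11 ± 0.92, adjusted p = 0.21) rested on day 15 library 3 at 80.3 CPM, since libraries 1, 2 and 4 were at 5.08, 2.41 and 2.58 CPM and day 12 at 0.858 to 4.10 CPM. TFRC stood at 38.7, 19.3, 23.5 and 68.4 CPM on day 15 and at 17.6 to 26.2 CPM on day 12 (0.79 ± 0.34, adjusted p = 0.313). ENSSSCG00000009997 was lower on day 15, at 1.87, 2.50, 4.14 and 1.29 CPM against 3.91 to 7.92 CPM on day 12 (-1.27 ± 0.35, adjusted p = 0.187). Smooth muscle markers summed to 11928, 1273, 25783 and 7718 CPM in oviduct day 15 libraries 1 to 4, and to 1544 to 8217 CPM on day 12. Epithelial markers summed to 4080, 2122, 1492 and 2779 CPM on day 15. Library 3, the highest for SERPINB2 and EFHD1, was thus highest for smooth muscle and lowest for epithelium. The part of these cells in the oviduct levels was not tested.

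Other members gave narrow estimates in the oviduct. CD164 had a log2 fold change of -0.06 from day 12 to day 15, with a 95% interval of -0.31 to 0.19. RPRD1B had -0.02 (-0.23 to 0.20), MALT1 0.03 (-0.34 to 0.39) and MOSPD2 0.15 (-0.10 to 0.40). These intervals use a normal approximation to the standard error, so they may be narrower than the quasi-likelihood test of edgeR implies. As computed they leave out a doubling, and a missed threshold does not show that the levels were equal.

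None of the 34 members belonged to the 10 pathway lists drawn up for a late luteal endometrium. These cover prostaglandins, steroid and oxytocin signalling, cytokines, interferon-induced genes, antigen presentation, matrix metalloproteinases, apoptosis, the cell cycle, secreted proteins and vessels. Each list had 5 to 19 genes found in the count table, where 11804 genes have a symbol. The 9 members without a symbol could not be matched to a list. With lists this short, nothing is read from the absence of members. In these lists 11 genes were called between days 12 and 15 of the endometrium, all of them higher on day 15. These calls depended on the fit, since 0 of the lists' genes were called with the replicate number as a block (0 of all genes) and 0 with only the 2 groups compared (1 of all genes). In the fit over all days, 3.9% of the 15341 genes were called higher and 2.27% lower. The 11 were PTGER2 and PLA2G4A (15 prostaglandin genes tested), HSD11B1 and OXTR (13 hormone signalling genes), MMP7 and MMP13 (15), PMAIP1 (10 apoptosis genes), SPP1 and TRPV6 (12 secreted proteins and transporters), and EDNRB and ADM (15 vessel genes). By edgeR, 0 were called among 9 cytokine, 15 interferon-induced, 5 antigen presentation and 13 cell cycle genes, of which 4, 0, 0 and 0 had an unadjusted p under 0.05.

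The library split of the members appeared as well in PTGER2, OXTR and PLA2G4A, which had been called for a higher day 15 level. PTGER2, a prostaglandin E2 receptor, stood at 345, 28.5, 523 and 586 CPM in day 15 libraries 1 to 4 and at 42.0 ± 14.6 CPM (SD, n = 3) on day 12, a log2 fold change of 3.21 ± 0.80 (edgeR adjusted p = 0.0327). OXTR, the oxytocin receptor, stood at 41.1, 1.95, 9.89 and 32.5 CPM on day 15 and at 2.15 ± 1.17 CPM on day 12 (3.37 ± 0.90, adjusted p = 0.0387). PLA2G4A, the phospholipase that frees arachidonic acid for prostaglandin synthesis, stood at 238, 86.8, 166 and 233 CPM on day 15 and at 85.6 ± 15.1 CPM on day 12 (1.15 ± 0.32, adjusted p = 0.0432). In each, library 2 was at the level of day 12. Without library 2, 45 genes of these lists were called, beside 28.4% of all genes, and leaving out any one of the other 6 libraries of days 12 and 15 left 0.

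Partners of the members were looked up in lists chosen after the members were known, so their values are a description. In the iron list, STEAP3, the reductase that works beside the transferrin receptor, stood at 56.3, 48.7, 130.3 and 133 CPM on day 15 and had a mean of 33.8 CPM on day 12. ACO1, whose protein regulates iron genes when it lacks its iron cluster, ran at other days, with means of 1116 CPM on day 9 and 321 CPM on day 15. In the glutathione list, GSS, which completes the synthesis that GCLC starts, varied little, with means of 19.8 to 25.6 CPM over the 7 days, and GSR, which regenerates glutathione, lay at 26.4 to 35.7 CPM. NFE2L2, a transcription factor of the antioxidant response, had its highest mean on day 15 (382 CPM, against 176 to 301 CPM).

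In the ion transport list, no other gene had the course of SLC12A2. CFTR, the chloride channel of secretory epithelia, stood at 48.6, 57.5, 47.4 and 147 CPM on day 15 and had its highest mean on day 18 (146 CPM). SCNN1A, the sodium channel subunit of absorbing epithelia, had its highest mean on day 9 (707 CPM) and was higher in library 2 (309.6 CPM) than in libraries 1, 3 and 4 of day 15 (238, 163 and 104 CPM). ATP1B1, a sodium pump subunit, was likewise higher in library 2, at 572 CPM against 161, 98.5 and 123 CPM. In the lymphocyte list, CD44, an adhesion receptor of many cells, stood at 346, 35.6, 299 and 424 CPM, with means of 63.0 CPM on day 12 and 260.0 CPM on day 18, while CD28 and ICOS, receptors of T cells, stayed under 1 CPM in every mean.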

How the data were processed

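Paired-end reads were cut by 13 bases at their start and aligned by the authors with tophat2 to Sus scrofa 10.2 and the Ensembl release 78 transcriptome. The authors deposited raw whole-number counts per gene and library, not pooled. The submitters' notes name featureCounts, and the use of strand is not given in the sources used here, so overlapping genes cannot be told apart. The sample labels name a TruSeq Stranded kit, while the study's methods name a TruSeq RNA kit. Columns were matched to tissue and day by name, and library numbers are the column numbers. The labels list 67 samples, and 1 further day 12 endometrium sample was not analysed here. No 2 libraries of a group were identical (74 pairs). Symbols were matched for 11804 of 25322 identifiers. Genome positions and sequences are not given, as the gene table used is of another assembly.

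CPM was computed from column totals. Ovary and oviduct were each fitted in 1 model over all days with edgeR 4.0.16 (R 4.3.3; TMM, filterByExpr, robust glmQLFit, glmQLFTest, Benjamini-Hochberg adjustment), as was the endometrium for the pathway lists. These steps were tested on simulated data. DESeq2 1.42.0, other scalings, filters, fits of only the 2 groups, a replicate block and leaving out each library were alternatives, and leaving out 2 libraries together and the endometrium test of the pathway lists were chosen after seeing the data. The members and lists were chosen with earlier results of these data known. The genes to name were those with the largest ratios, the highest day 15 means and the lowest adjusted p, and the 2 on each side of the limit; other members are named to account for all 34. Python 3.11.15, numpy 2.4.6, pandas 2.3.3 and matplotlib 3.10.9 were used.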

Additional observations from a re-analysis of the deposited data

Results flagged for a closer look

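Groups of 4 libraries were checked by Dixon's critical value. A library was singled out where its gap to the nearest other, as a share of the range, exceeded this value. For normally distributed values, chance gives that in about 1 in 20 groups that were not chosen by their values. CPM from few counts are not so distributed. The chance rate here is therefore not known, and nothing is read from the number singled out. Of 164 groups of a member, a tissue and a day, 22 were singled out, and the groups of 1 tissue share libraries. Nor does the rate of 1 in 20 apply to the endometrium on day 15, whose levels chose the members. In the endometrium on day 15, library 3 was high for ENSSSCG00000023305 (66.0 CPM), SLC6A13 (23.6 CPM), ENSSSCG00000022287 (124 CPM) and TOPAZ1 (9.07 CPM). Library 1 was high for OPN4 (24.4 CPM), SERPINB2 (52.3 CPM) and MALT1 (43.6 CPM). Library 2 was singled out for no member.

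In the oviduct on day 15, library 3 was high for EFHD1 (80.3 CPM) and low for ENSSSCG00000022287 (9.83 CPM) and MOSPD2 (21.2 CPM). Library 1 was high there for PDE3B (1.96 CPM) and library 2 for ENSSSCG00000008582 (2.98 CPM). On day 12 of the oviduct, library 2 was high for ENSSSCG00000001228 (10.6 CPM) and library 1 for ENSSSCG00000004182 (0.393 CPM).

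In the ovary on day 12, library 1, the one with the lowest granulosa and luteal marker sum of that day, was high for RPRD1B (108 CPM), CYP26B1 (1.75 CPM), ENSSSCG00000023305 (1.27 CPM) and ENSSSCG00000004182 (1.07 CPM). Library 4 of that day was high for ENSSSCG00000008582 (0.355 CPM) and low for CKMT2 (0.0888 CPM). On day 15 of the ovary, library 1 was high for ENSSSCG00000012071 (23.7 CPM) and library 4 for SLC6A13 (0.645 CPM). Ciliated cell markers summed to 303 CPM in that library 1, against 11.4 to 36.2 CPM in the other ovary libraries of days 12, 15 and 18. Its smooth muscle markers were the highest of these libraries, at 14958 CPM. In the oviduct, ENSSSCG00000012071 had a day 15 mean of 61.3 CPM. The part of tissue composition in its ovary level was not tested. Several of the member levels singled out lie near the floor of 3 counts.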

How the results depend on the processing

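The number of member genes was 34. It was 53 with TMM library sizes (29 of the 34 among them) and 59 with medians in place of means (18 of the 34). With 0.1 CPM added in place of 1 CPM it was 27 (22 of the 34). At a ratio of at least 2 it was 17. It was 56 at a day 15 mean of at least 1 CPM, 18 at 20 CPM and 66 with the day 9 limit in the endometrium only. Leaving out 1 endometrium library gave 17 to 81 members, with 81 without day 15 library 2 (33 of the 34), 17 without day 15 library 3 (14) and 73 without day 18 library 1 (32). Leaving out both day 15 library 2 and day 18 library 1 gave 133. All 34 kept day 15 as their highest day under TMM. Without day 15 library 1, the log2 ratio of day 15 to the next highest day was -0.0399 for OPN4 and -1.11 for SERPINB2, and without library 3 it was -0.25 for ENSSSCG00000022287. Over the 4 libraries left out, the highest values were 1.89, 1.89 and 1.40, each without library 2. Members with a ratio of at least 1.7 numbered 24, 33, 16 and 26 without day 15 libraries 1 to 4.

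Members called in the oviduct between days 12 and 15 numbered 0, with 2 by DESeq2 (EFHD1 and ENSSSCG00000009997) and 0 to 3 without 1 library (3 without day 15 library 2, beside 5.45% of all genes). In the ovary between these days there were 0, with 3 by DESeq2 (SERPINB2, CD69 and ENSSSCG00000009997) and 0 to 6 without 1 library (6 without day 12 library 1, beside 17.6% of all genes, and 4 without day 15 library 2, beside 7.53%). Between days 15 and 18 there were 0 to 0 without 1 library in either tissue. DESeq2 called 1 in the ovary (ENSSSCG00000012071), whose day 15 level there rested on library 1 (23.7 CPM, against 0.322 to 1.24 CPM in libraries 2 to 4). With a replicate block, 0 members were called in each comparison. Library numbers were not taken to pair the libraries, as same-number correlations ran from -0.60 to 0.72 over the ovary and oviduct comparisons and from 0.02 to 0.28 between days 12 and 15 of the endometrium.

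Genes of the pathway lists called in the endometrium numbered 11, and 4 without the filter on low counts, 24 by DESeq2, 0 with the replicate block, 0 with only the 2 groups compared, and 0 to 45 without 1 library. The causes were not tested. Depth limits the members with day 15 means near 5 CPM, whose counts on other days were low. Their medians over the libraries of other days included 1.62 CPM for PDE3B, 1.06 CPM for ENSSSCG00000008582, 0.726 CPM for CKMT2 and 0.873 CPM for EPCIP, all above the floor. Those of ENSSSCG00000004182 (0.109 CPM), SERPINB2 (0.105 CPM) and OR10G3 (0.0506 CPM) lay under it. The day 15 means of these genes were 6.77, 14.2 and 9.75 CPM.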
